A study of Mus musculus with 37 samples.

Results

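The osteoclast genes are 10 genes by which the bone-resorbing cell is recognized: the receptors Tnfrsf11a, Oscar and Calcr, the transcription factor Nfatc1, the fusion genes Dcstamp, Ocstamp and Atp6v0d2, and the resorption genes Acp5, Ctsk and Slc9b2. They were chosen by name, with earlier results of these libraries known, and all 10 were found among the 51123 gene IDs of the expression table. RNA had been sequenced from cultured mouse bone marrow (BM) and osteosarcoma cells in 37 libraries, which form 2 sets with control libraries of their own. In SKO mice, Osx1-Cre, which is active in osteoblast progenitors, deletes Trp53 (the gene of p53), and in DKO mice it deletes Wwox as well as Trp53. Both carry a Rosa26-LSL-tdTomato reporter that Cre turns on. BM of young mice without tumors is called yBM, BM collected when a tumor was detected is called BMT, and tumor cells were cultured likewise. Set 1 holds control BM (n = 4), DKO yBM (n = 6, of which libraries 1 to 3 came from mice of 1.5 months and 4 to 6 from mice of 4 months), DKO BMT (n = 3) and DKO tumor cells (n = 3). Set 2 holds 3 libraries each of control BM and of yBM, BMT and tumor cells from SKO and from DKO mice. Control BM is wild type in the labels and the methods and Cre-negative in the description of the series, and ages other than those of DKO yBM in set 1 are not given in the labels. Knockout cells were passaged in culture until tdTomato-positive cells were dominant. The labels name bone marrow or tumor as the tissue and no osteoclast culture, so the libraries are bulk RNA of mixed cultures in which fewer cells of a type and less RNA per cell cannot be told apart.

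Osteoclasts are large multinucleated cells that arise from precursors of the monocyte and macrophage line. The cytokine M-CSF, acting on Csf1r, keeps the precursors alive, and RANKL (Tnfsf11), made by osteoblasts and stromal cells, acts on RANK (Tnfrsf11a) to induce NFATc1, which drives precursor fusion and the expression of the enzymes and pumps that dissolve bone mineral and matrix. Osteoprotegerin (Tnfrsf11b) is a soluble decoy that binds RANKL, and Ptprc encodes CD45, a surface protein of nearly all leukocytes.

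The values are TPM, transcript abundances scaled to the same total in each library, which correct for gene length, so that levels can be compared between genes, but keep no sequencing depth, so that no counting error can be given. Between 11001 and 13249 genes reached 1 TPM in a library, and mitochondrial transcripts took 5.32% to 32.5% of the TPM. A list of 19 macrophage markers, given as the mean of log2(TPM + 1), lay at 5.44 to 7.72 in control BM of set 1, at 3.48 to 7.32 in DKO yBM, at 6.33 to 7.13 in DKO BMT and at 5.62, 0.457 and 0.476 in DKO tumor cells 1 to 3. In set 2 it lay at 7.96 to 8.19 in control BM and at 0.234 to 0.511 in all knockout libraries except SKO BMT 2, at 4.93, and DKO BMT 2, at 4.04. The mean of 11 osteoblast and stromal markers lay between 4.62 and 8.13 over all libraries. In set 1, the level of Trp53 relative to the mean of control BM was 63.3% in BMT 2 and 72.1% in BMT 3, which goes against their DKO label, and at most at 36.1% in the other knockout libraries of both sets. Wwox was at 50% or more of its control mean in 10 libraries labelled DKO (yBM 2 to 6, tumor 1 and BMT 1 of set 1 and the 3 tumor libraries of set 2), and at 2.84% and 2.39% in the libraries labelled SKO BMT 2 and 3. Control BM 3 of set 1 was itself at 32.0% for Wwox, so that this bar also parts control libraries.

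The promoters of the osteoclast genes are shown because the factors of the pathway are known to act on several of them. RefSeq promoters (GRCm38.p6, 250 bases before to 50 after each start) were matched for 6 of the 10 genes, in 9 windows. Dcstamp, Ocstamp and Atp6v0d2 were not matched. Member windows on the chromosome of Nfatc1 were left out of the search, so that Nfatc1 has no window here. The background of all promoters keeps that chromosome. Both strands were searched for the letters GGAAA (the core bound by NFAT factors), GAGGAA (a PU.1 core), CATGTG (bound by MITF) and TGANTCA (bound by AP-1). Capitals mark every match on either strand, and matches to GGAAA and GAGGAA can share bases, so that a stretch can count for both. The 4 windows printed belong to the gene with the most matches (Oscar) and to the 3 resorption genes.
Oscar, chr7:3616108-3616407, minus strand: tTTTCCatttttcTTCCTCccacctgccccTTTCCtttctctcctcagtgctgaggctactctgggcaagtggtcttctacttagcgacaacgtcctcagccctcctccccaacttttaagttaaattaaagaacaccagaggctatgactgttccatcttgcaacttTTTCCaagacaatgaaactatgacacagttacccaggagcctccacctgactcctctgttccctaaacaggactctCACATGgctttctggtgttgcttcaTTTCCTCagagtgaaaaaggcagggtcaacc
Acp5, chr9:22130549-22130848, minus strand: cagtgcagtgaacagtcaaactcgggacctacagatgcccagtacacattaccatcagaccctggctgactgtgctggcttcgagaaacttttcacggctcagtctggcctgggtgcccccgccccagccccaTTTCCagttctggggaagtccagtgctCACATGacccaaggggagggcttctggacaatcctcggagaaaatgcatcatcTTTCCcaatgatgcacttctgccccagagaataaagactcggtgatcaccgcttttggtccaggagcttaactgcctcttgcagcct
Ctsk, chr3:95498960-95499259, plus strand: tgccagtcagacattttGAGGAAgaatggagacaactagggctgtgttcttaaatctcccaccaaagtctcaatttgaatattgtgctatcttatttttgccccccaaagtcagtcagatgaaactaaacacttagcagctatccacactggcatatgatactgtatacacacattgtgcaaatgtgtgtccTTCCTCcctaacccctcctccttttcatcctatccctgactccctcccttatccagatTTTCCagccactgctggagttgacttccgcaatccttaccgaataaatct
Slc9b2, chr3:135307450-135307749, plus strand: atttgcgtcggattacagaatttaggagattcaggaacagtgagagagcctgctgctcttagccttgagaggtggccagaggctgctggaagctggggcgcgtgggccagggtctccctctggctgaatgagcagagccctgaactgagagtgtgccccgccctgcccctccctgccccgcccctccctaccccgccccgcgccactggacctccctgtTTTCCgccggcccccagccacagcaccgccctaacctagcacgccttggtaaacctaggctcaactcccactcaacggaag
The window of Oscar held 4 matches to GGAAA, 2 to GAGGAA and 1 to CATGTG. That of Acp5, which has 3 windows in the table, held 2 to GGAAA and 1 to CATGTG, that of Ctsk 1 to GGAAA and 2 to GAGGAA, and that of Slc9b2 1 to GGAAA. Of the 9 windows, 7 held GGAAA, 2 GAGGAA, 2 CATGTG and 0 TGANTCA. Among all 32544 promoters of the same length in the table, 61.5% held GGAAA, 28.1% GAGGAA, 14.2% CATGTG and 7.79% TGANTCA. These are matches of letters only.

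In set 1, the osteoclast genes were concentrated in the same few libraries. The 4 highest libraries of Acp5 were those labelled DKO BMT 3, DKO yBM 4, DKO yBM 3 and DKO BMT 2, and 7 other members (Oscar, Calcr, Nfatc1, Dcstamp, Ocstamp, Ctsk and Slc9b2) had these 4 libraries as their highest as well. Tnfrsf11a shared 3 of them and Atp6v0d2 2. Csf1r shared 2 and Ptprc 1, so that the order of the leukocyte reference genes was another. Because the members were chosen with these values known, the levels are given as a description. The calls of members in the fit further below are description for the same reason. The heatmap of set 1 shows the 4 libraries side by side.

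**Figure D1:**
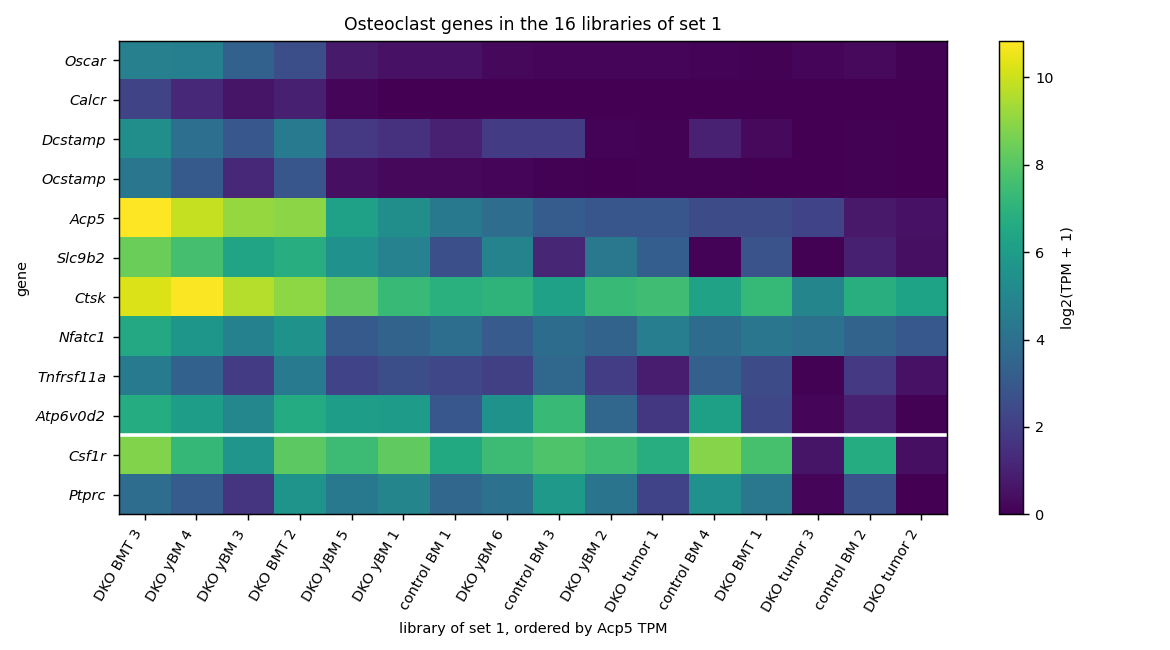
Osteoclast genes (upper 10 rows) and the reference genes Csf1r and Ptprc (lower 2 rows) in the 16 libraries of set 1, as log2(TPM + 1) by colour, with libraries ordered from left to right by falling Acp5. Acp5 runs from 1829 TPM in DKO BMT 3 to 0.428 TPM in DKO tumor 2, and Oscar, Calcr, Dcstamp, Ocstamp and Slc9b2 are brightest in the 4 columns on the left.

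Tnfrsf11a (ENSMUSG00000026321) encodes RANK, the receptor of RANKL. In set 1 it was at 3.88, 2.52, 11.2 and 8.88 TPM in control BM 1 to 4, at 4.73, 21.1 and 20.3 TPM in the libraries labelled DKO BMT 1 to 3, and at 0.801, 0.448 and 0.0535 TPM in DKO tumor cells. DKO yBM lay between 2.80 and 9.37 TPM with a median of 3.30. Control BM, yBM and BMT overlapped, and the tumor libraries did not exceed 0.801 TPM. In contrast to most other members, RANK was as low in DKO yBM 3 (2.80 TPM) as in the yBM libraries with little Acp5.

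Oscar (ENSMUSG00000054594) encodes a collagen-binding receptor that signals through the adaptor FcRγ and costimulates osteoclast formation. It was at 9.32 TPM in DKO yBM 3 and 24.7 TPM in DKO yBM 4, and at 5.12 and 25.2 TPM in the libraries labelled DKO BMT 2 and 3. In the other 12 libraries of set 1 it did not exceed 0.718 TPM (DKO yBM 5), with 0.0652 to 0.422 TPM in control BM and 0.0372 TPM in DKO BMT 1. The fourth-highest library was thus 7.13 times the fifth. Calcr (ENSMUSG00000023964), the calcitonin receptor of mature osteoclasts, was the lowest member, with 3.73 TPM in the library labelled DKO BMT 3, 1.37 in DKO yBM 4, 0.930 in that labelled DKO BMT 2 and 0.542 in DKO yBM 3. It was listed at 0 in 3 of 4 control libraries and in all 3 tumor libraries, and the fifth-highest library was DKO yBM 5 at 0.0936 TPM.

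Nfatc1 (ENSMUSG00000033016), the master transcription factor of osteoclast formation, behaved differently in that it was present in every library. Control BM lay between 9.96 and 14.1 TPM, DKO yBM between 7.35 and 51.6 TPM with a median of 9.96, and DKO tumor cells at 24.1, 6.81 and 16.2 TPM. The libraries labelled DKO BMT 1 to 3 were at 18.0, 46.9 and 90.9 TPM. The 4 highest libraries were again the same, but DKO yBM 3, at 25.8 TPM, was only 1.07 times DKO tumor 1, the fifth.

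The fusion genes separated into a pair that followed Acp5 and Atp6v0d2, which did not. Dcstamp (ENSMUSG00000022303) and Ocstamp (ENSMUSG00000027670) encode the membrane proteins DC-STAMP and OC-STAMP, without which precursors do not fuse. Dcstamp was at 0.227, 20.4 and 39.4 TPM in the libraries labelled DKO BMT 1 to 3, at 6.77 and 14.5 TPM in DKO yBM 3 and 4, at 0.0809 to 2.66 TPM in the other yBM libraries, at 0.0309 to 2.64 TPM in control BM and at 0.0528, 0 and 0 TPM in tumor cells. Ocstamp was at 0.0169, 6.43 and 18.2 TPM in BMT 1 to 3, at 1.30 and 7.35 TPM in DKO yBM 3 and 4, and at 0.367 TPM or less in all other libraries of set 1. Atp6v0d2 (ENSMUSG00000028238), a subunit of the vacuolar proton pump that also takes part in fusion, was highest in control BM 3 at 163 TPM. The other control libraries were at 6.58, 1.01 and 70.1 TPM, BMT at 4.14, 100.8 and 103 TPM, tumor cells at 2.36, 0.0330 and 0.131 TPM, and yBM between 11.1 and 66.2 TPM with a median of 53.8. Its high values in control BM 3 and 4 came with 7.82 and 4.63 TPM of Acp5.

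The resorption genes gave the highest levels. Acp5 (ENSMUSG00000001348) encodes tartrate-resistant acid phosphatase (TRAP), the enzyme by which osteoclasts are stained. It was at 19.6, 0.653, 7.82 and 4.63 TPM in control BM 1 to 4 and at 6.38, 0.428 and 3.54 TPM in DKO tumor 1 to 3. DKO yBM ranged from 6.43 to 944 TPM with a median of 55.6, and the libraries labelled DKO BMT 1 to 3 were at 4.54, 497 and 1829 TPM. Libraries of the same label thus spread widely, and the lowest of yBM and of BMT lay within the range of control BM.

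Ctsk (ENSMUSG00000028111) encodes cathepsin K, the protease that degrades bone collagen. It was at 116, 112, 73.4 and 75.5 TPM in control BM, at 152, 511 and 1232 TPM in the BMT libraries and at 184, 78.1 and 29.4 TPM in tumor cells, while yBM ranged from 133 to 1732 TPM with a median of 228. All yBM and BMT libraries lay above all control libraries. Slc9b2 (ENSMUSG00000037994), a sodium/proton exchanger that rises during osteoclast differentiation, was at 5.31, 0.925, 1.22 and 0.0782 TPM in control BM, at 5.76, 107 and 338 TPM in BMT, at 8.54, 0.370 and 0.0333 TPM in tumor cells, and between 19.0 and 196 TPM in yBM with a median of 35.8. It too did not overlap between control BM and yBM or BMT, though the lowest BMT library (5.76 TPM) was near the highest control library (5.31 TPM). The share of all genes without overlap was not counted, so nothing is read from this for either gene. Even the yBM libraries with little Acp5 (yBM 2 and 6, 6.43 and 13.5 TPM) had 19.0 and 27.5 TPM of Slc9b2.

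**Figure D2:**
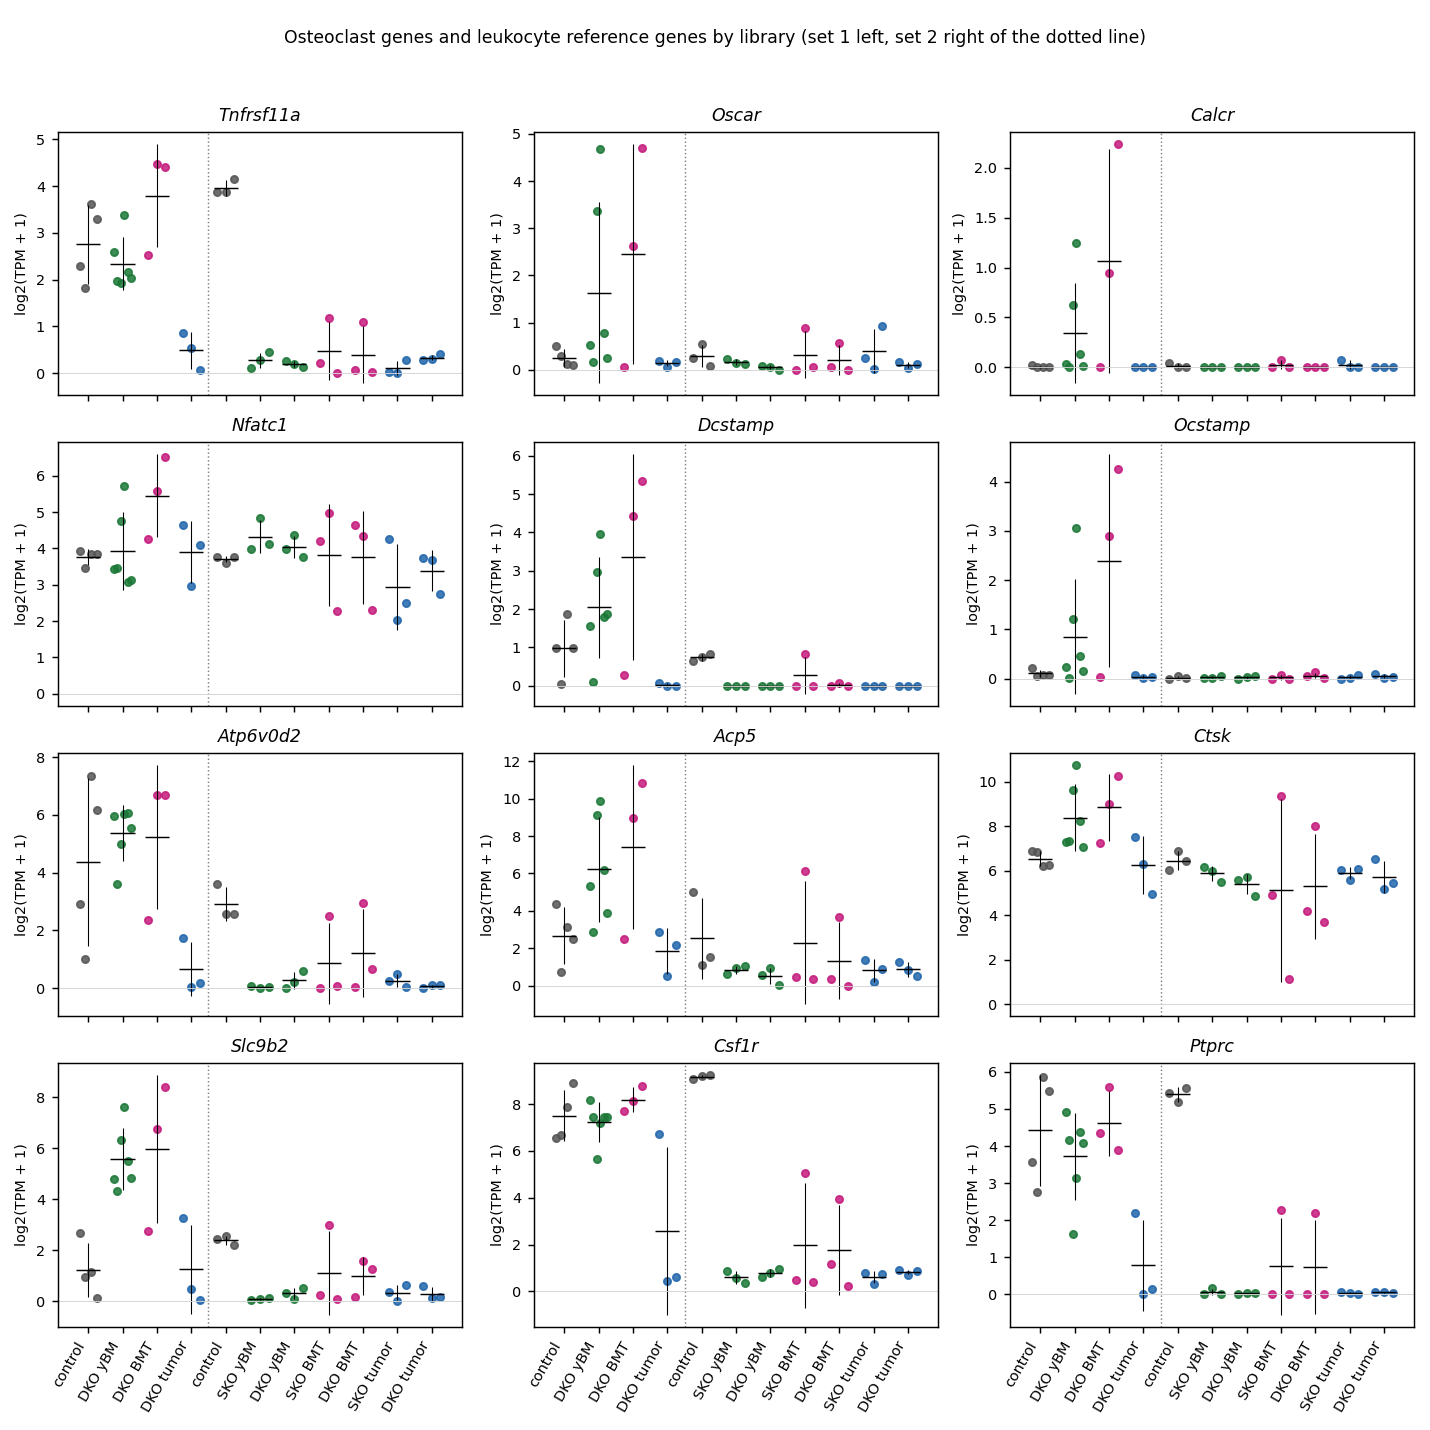
The 10 osteoclast genes, Csf1r and Ptprc in all 37 libraries as log2(TPM + 1), by group, with set 1 left and set 2 right of the dotted line; points are libraries, horizontal bars means of the log2 values of a group and vertical lines 1 SD. In set 2, most knockout libraries lie near 0 for all panels but Nfatc1 and Ctsk. The exceptions are those labelled SKO BMT 2 and DKO BMT 2. Ctsk reaches 652 TPM in SKO BMT 2, whose Wwox goes against its label.

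Both ages of DKO yBM in set 1 held 1 of the libraries with high osteoclast genes. DKO yBM 3 came from a mouse of 1.5 months, where Acp5 averaged 199 ± 306 TPM (SD, n = 3), and DKO yBM 4 from a mouse of 4 months, where it averaged 343 ± 521 TPM (SD, n = 3). Ctsk averaged 369 ± 366 and 720 ± 880 TPM and Dcstamp 2.93 ± 3.45 and 6.55 ± 6.89 TPM at the 2 ages. The 2 ages overlapped for these genes.

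In set 2, the osteoclast genes other than Ctsk and Nfatc1 were near 0 in most knockout libraries. Control BM held 13.6, 13.6 and 16.8 TPM of Tnfrsf11a, 11.1, 4.89 and 4.90 TPM of Atp6v0d2, 4.44, 4.81 and 3.60 TPM of Slc9b2 and 0.566, 0.698 and 0.779 TPM of Dcstamp. Acp5 was at 31.2 TPM in the control column Control-WT-1 and at 1.13 and 1.85 TPM in the other 2. Oscar, Ocstamp and Calcr did not exceed 0.456, 0.0314 and 0.0323 TPM in control BM. Control BM of set 2 therefore combined the highest Csf1r of the series (544, 582 and 599 TPM) with Acp5 below that of DKO yBM 3 and 4 and of the libraries labelled DKO BMT 2 and 3 in set 1.

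Among the 18 knockout libraries of set 2, SKO BMT 2 and DKO BMT 2 had the highest Csf1r, Ptprc, Acp5, Ctsk, Atp6v0d2 and Tnfrsf11a. SKO BMT 2, whose Wwox goes against its label, held 67.9 TPM of Acp5, 652 of Ctsk, 7.04 of Slc9b2, 4.59 of Atp6v0d2, 1.27 of Tnfrsf11a, 0.857 of Oscar and 0.789 of Dcstamp. DKO BMT 2 held 11.95 TPM of Acp5, 257 of Ctsk, 2.00 of Slc9b2, 6.65 of Atp6v0d2, 1.13 of Tnfrsf11a, 0.476 of Oscar and 0.0557 of Dcstamp. They also held 32.4 and 14.4 TPM of Csf1r and 3.83 and 3.57 TPM of Ptprc. In the other 16 knockout libraries Csf1r did not exceed 1.26 TPM and Ptprc 0.112 TPM, Acp5 did not exceed 1.58 TPM and Tnfrsf11a 0.356 TPM, and Dcstamp was listed at 0 in each. Oscar did not separate them, since it reached 0.892 TPM in SKO tumor 3, and Slc9b2 reached 1.37 TPM in DKO BMT 3. Ocstamp and Calcr were at most at 0.0921 and 0.0541 TPM in any knockout library of set 2.

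Ctsk and Nfatc1 were also expressed where Csf1r was near 0. In the 16 knockout libraries of set 2 with Csf1r of at most 1.26 TPM, Ctsk lay between 1.21 and 91.3 TPM and Nfatc1 between 3.08 and 27.7 TPM. DKO tumor 2 and 3 of set 1, with Csf1r at 0.358 and 0.533 TPM, had 78.1 and 29.4 TPM of Ctsk and 6.81 and 16.2 TPM of Nfatc1. In these libraries Oscar did not exceed 0.892 TPM and Dcstamp was listed at 0. Fcer1g, the FcRγ adaptor, was at 97.0 TPM in SKO BMT 1, 28.7 TPM in SKO yBM 3 and 20.9 TPM in SKO tumor 1. Ptprc and the macrophage list did not rise with it, while Mmp9, described further below, was high in SKO BMT 1. Ptprc did not exceed 0.112 TPM and the mean of the macrophage list 0.511 in the libraries with Csf1r near 0. Tyrobp was listed at 0 in SKO yBM and did not exceed 0.289 TPM in SKO tumor cells. Control BM of set 2 was at 64.6, 118 and 84.0 TPM of Ctsk. Most libraries with Csf1r near 0 lay below its lowest value, and only a few reached its range. For Nfatc1 these libraries lay on both sides of control BM in set 2 (12.5, 11.1 and 12.6 TPM).

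The level of the osteoclast genes relative to Csf1r varied between libraries in which Csf1r was well expressed. Acp5 was at 1110% of the Csf1r TPM in DKO yBM 3, at 647% in DKO yBM 4 and at 180% and 417% in the libraries labelled DKO BMT 2 and 3, but at 0.635% to 20.9% in control BM of set 1, at 0.193% to 5.73% in control BM of set 2, at 2.20% in DKO BMT 1 and at 6.03% in DKO tumor 1. DKO yBM 1, 2, 5 and 6 were at 13.5%, 3.67%, 41.4% and 7.76%. DKO yBM 3 had the lowest Csf1r of the yBM group (49.7 TPM, against 146 to 291 TPM in the others), the lowest Ptprc (2.10 TPM) and the lowest mean of the macrophage list (3.48). In set 2, SKO BMT 2 was at 209% and DKO BMT 2 at 83.0%. Tnfrsf11a, in comparison, stayed between 0.757% and 7.84% of Csf1r in all libraries with at least 14.4 TPM of Csf1r. No correlation over libraries is given, since the libraries fall into groups with and without macrophage transcripts. The part that the macrophage content, the stromal content and the Trp53 or Wwox level that goes against the label in each of these 4 libraries have in the result was not tested.

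**Figure D3:**
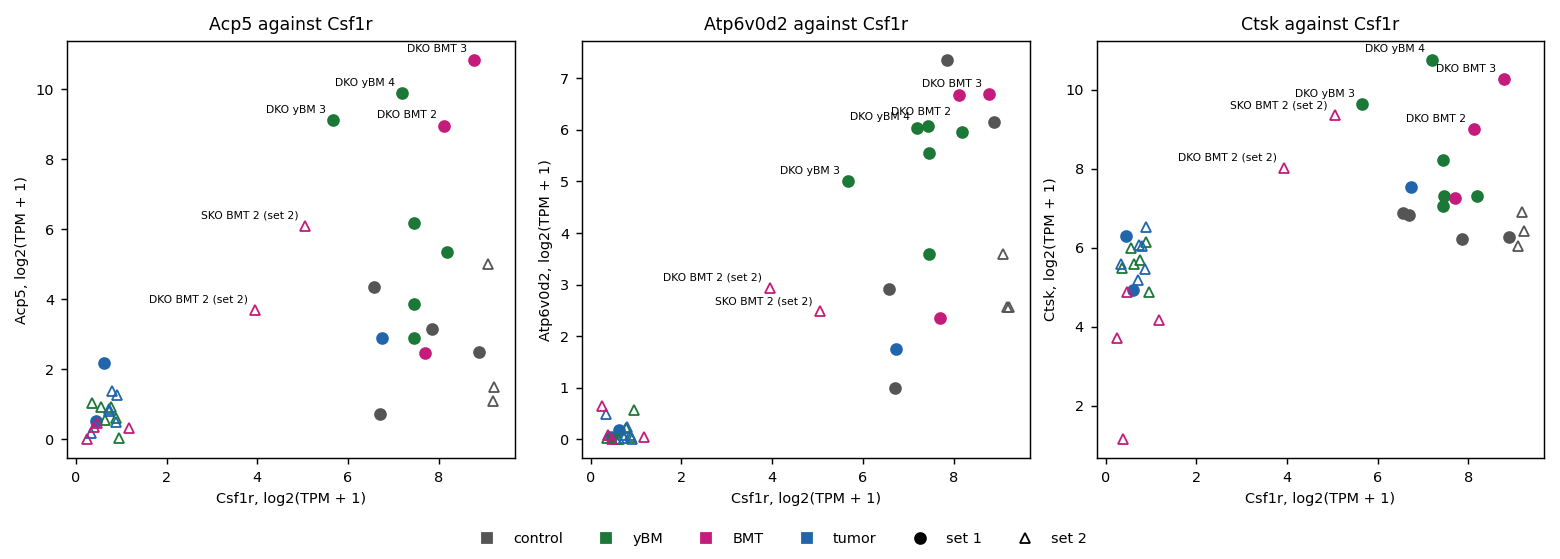
Acp5, Atp6v0d2 and Ctsk against Csf1r, all as log2(TPM + 1), in 37 libraries coloured by tissue; filled circles are set 1 and open triangles set 2. Libraries with high Csf1r span Acp5 from 0.653 to 1829 TPM, whereas libraries with Csf1r near 0 keep Ctsk at 1.21 to 91.3 TPM and have Atp6v0d2 of at most 0.563 TPM.

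The design asks whether knockout cells differ from control BM, whether DKO differs from SKO, and whether tumor cells differ from BMT. Genes that reached 1 TPM in 3 or more libraries of a set were fitted with limma on log2(TPM + 1), with Benjamini-Hochberg adjustment over all genes tested. In set 1, 9 of 10 members passed this filter (all but Calcr), and in set 2 6 passed (not Oscar, Calcr, Dcstamp and Ocstamp). Oscar and Ocstamp reached 1 TPM in only 4 libraries of set 1, the 4 highest of Acp5, and passed through these alone. In DKO yBM against control BM 1 of the 9 members was called, Slc9b2, at 65.5 ± 67.6 TPM (SD, n = 6) against 1.88 ± 2.34 (n = 4) and a log2 fold change of 4.35 (SE 0.97), where 7.81% of 14404 genes were called, 1.67% as higher and 6.14% as lower. Acp5 was not called at 271 ± 390 against 8.17 ± 8.16 TPM and a log2 fold change of 3.53 (SE 1.56), nor was Ctsk at 1.84 (SE 0.74). The median log2 fold change of the 9 members was 1.07, beside −0.22 for all genes tested. Without control BM 2 or control BM 4, 0 members were called. The members were chosen with earlier results of these libraries known. Their counts and medians are therefore description in this and all later comparisons, and nothing is read from them.

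In DKO BMT against control BM, Slc9b2 was again the 1 member called, at 150 ± 170 TPM (SD, n = 3) and a log2 fold change of 4.76 (SE 1.15), with 2.35% of all genes called, 0.958% as higher and 1.4% as lower. Acp5, at 777 ± 944 TPM and 4.74 (SE 1.84), Ctsk, at 632 ± 550 TPM and 2.30 (SE 0.88), and Nfatc1, at 51.9 ± 36.7 TPM and 1.68 (SE 0.64), were not called. The members' median was 2.29 beside −0.06 for all genes. Without the libraries labelled DKO BMT 2 and 3, whose Trp53 goes against the label, 0 members were called in a fit that assumes that the lone BMT library varies like the other groups, and without DKO BMT 1 and the others whose Wwox goes against it 4 were called. Without DKO BMT 1 alone the count was 3, and without any single one of the other 6 libraries compared it was 0.

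In DKO tumor cells against control BM, Tnfrsf11a was the member called, at 0.434 ± 0.374 against 6.63 ± 4.11 TPM and a log2 fold change of −2.27 (SE 0.53), with 3.39% of all genes called (1.19% higher and 2.21% lower) and a members' median of −0.29 beside −0.09. Csf1r (−4.90) and Ptprc (−3.64) were also called lower, as were 9 of 19 macrophage markers, and their part in the result was not tested. In tumor cells against BMT it was again Tnfrsf11a, at a log2 fold change of −3.31 (SE 0.56), with 0.257% of all genes called (0.0555% higher and 0.201% lower). The study describes BMT as paired with the tumor cells, and with same-numbered libraries as a block Tnfrsf11a was not called (SE 0.57). Acp5, Slc9b2 and Atp6v0d2 differed by −5.56 (SE 1.97), −4.72 (SE 1.23) and −4.58 (SE 1.41) there and were not called. With single libraries left out, the count against BMT was 4 without DKO BMT 1, 2 without DKO tumor 1 and 0 without any one of BMT 2, BMT 3, tumor 2 and tumor 3. The count against control BM was 0 without tumor 3, control BM 3 or control BM 4 and 2 without control BM 2.

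In set 2, Tnfrsf11a, Atp6v0d2 and Slc9b2 were the members called, all of them lower than in control BM. The 3 were called in SKO yBM (13.5% of all genes called), DKO yBM (19.5%), SKO tumor cells (11.6%) and DKO tumor cells (17.2%), Tnfrsf11a and Atp6v0d2 in SKO BMT (13.4%), and Tnfrsf11a alone in DKO BMT (12%). Of all genes, 7.77%, 10.2%, 9.57% and 9.48% were called lower in SKO yBM, DKO yBM, SKO tumor cells and DKO tumor cells, and 8.36% and 7.79% in SKO BMT and DKO BMT, while 5.78%, 9.34%, 2.01%, 7.71%, 5% and 4.22% were called higher in the same order. Csf1r and Ptprc were called lower in all 6 comparisons, with log2 fold changes of −8.57 to −7.19 and −5.37 to −4.64, as were 19 of 19 macrophage markers in each, and their part in the result was not tested. Tnfrsf11a fell by 3.49 to 3.87 on the log2 scale over the 6 comparisons. Without SKO BMT 2, the count in SKO BMT was 4, and without any other single library compared it was 1. Without DKO BMT 2, the count in DKO BMT was 2. In contrast, the log2 fold change of Nfatc1 lay between −0.78 and 0.61 and that of Ctsk between −1.32 and −0.54, with SEs of 0.68 and 1.34. The 6 comparisons share the 3 control libraries, which the columns tie to their group only, and so are not independent of each other.

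Between libraries labelled DKO and SKO in set 2, limma called 0 members. By the Wwox transcript the labels separated only in yBM, since Wwox goes against the label in the 3 DKO tumor libraries and in SKO BMT 2 and 3. The log2 fold changes of DKO against SKO for the 6 members tested lay between −0.49 (Ctsk, SE 1.34) and 0.24 (Atp6v0d2, SE 0.62) in yBM, between −0.96 (Acp5, SE 1.25) and 0.35 (Atp6v0d2, SE 0.62) in BMT, and between −0.20 (Atp6v0d2, SE 0.62) and 0.46 (Nfatc1, SE 0.68) in tumor cells. With same-numbered BMT libraries as a block, the SEs of Acp5 and Atp6v0d2 in BMT were 0.74 and 0.27, and again 0 members were called. The SEs were too wide to show that the genotypes are alike. Of all genes, 0.0207% were called in yBM, and limma called 0 in BMT and 0 in tumor cells, where 378 and 1213 genes had an unadjusted p under 0.05. Tumor cells against BMT called 0 members in SKO and in DKO, where 0.083% of all genes were called in each.

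The other genes of the osteoclast pathway were taken from a list of 62, of which 62 were tested in set 1 and 59 in set 2. In DKO yBM of set 1, 6 of 62 were lower and 0 higher than in control BM, where 6.14% of all genes were lower and 1.67% higher. Cd81, a tetraspanin, fell by 2.13 on the log2 scale (SE 0.34, adjusted p = 0.00784 from limma), from 435 ± 199 to 96.8 ± 34.4 TPM. The AP-1 genes Fos and Jun, the NF-κB gene Nfkb1, the Csf1r ligand Il34 and Ostm1, the partner of the chloride channel ClC-7, were the others, with log2 fold changes of −3.58, −1.42, −0.77, −1.52 and −0.86 and adjusted p-values of 0.0200, 0.0171, 0.0275, 0.0408 and 0.0242. The count was 3 without yBM 5, yBM 6 or control BM 2 and 1 without control BM 4. The median of the list was −0.21, beside −0.22 for all genes.

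In DKO BMT, Car2, the carbonic anhydrase that supplies protons for acid secretion, rose from 0.163 ± 0.151 to 5.22 ± 4.01 TPM (SD, n = 4 and 3), a log2 fold change of 2.14 (SE 0.46, adjusted p = 0.0332 from limma). The BMT libraries were at 0.947, 8.89 and 5.83 TPM, and the control libraries at 0 to 0.366 TPM. DKO yBM 4 was at 2.13 TPM, and the other yBM libraries did not exceed 0.326 TPM. Cd81 (−1.81, adjusted p = 0.0351) and Jun (−1.40, adjusted p = 0.0436) were lower, so that 1 of 62 genes rose and 2 fell, where 0.958% of all genes were higher and 1.4% lower. The count called was 0 without BMT 2, BMT 3 or control BM 4, and 1 without control BM 1 or 2.

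In DKO tumor cells, where 2.21% of all genes were lower, 6 of 62 fell, namely the immunoreceptor adaptors Tyrobp (DAP12; −5.59, adjusted p = 0.0354) and Fcer1g (FcRγ; −5.02, adjusted p = 0.0414), the transcription factor Spi1 (PU.1; −4.70, adjusted p = 0.0390), the kinase Btk (−2.69, adjusted p = 0.0469), Fos (−3.80, adjusted p = 0.0400) and Ostm1 (−1.22, adjusted p = 0.0246). Spi1 was at 45.6, 0.123 and 0.121 TPM in tumor libraries 1 to 3 against 43.4 to 205 TPM in control BM. Against BMT, where 0.201% of all genes were lower, Spi1 (−6.13) and Btk (−3.95) were called, both with an adjusted p of 0.0472 from limma, and with same-numbered tumor and BMT libraries as a block neither was (adjusted p = 0.0559 for both). Without DKO tumor 1, whose Csf1r of 106 TPM was within the range of control BM, 20 genes were called against control BM and 17 against BMT. Against control BM the count was 11 without control BM 1, 12 without control BM 2, 1 without tumor 2 and 0 without tumor 3, control BM 3 or control BM 4. Against BMT it was 7 without BMT 1 and 0 without any one of BMT 2, BMT 3, tumor 2 and tumor 3. Of the 19 macrophage markers, 9 were called lower in tumor cells against control BM, and their part in these differences was not tested.

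In set 2, the knockout groups had 21 to 26 of 59 genes called against control BM, where 11.6% to 19.5% of all genes were called. All were lower except Src, the kinase needed for the ruffled border, which was higher in yBM and BMT of both genotypes (44.0 ± 3.40 to 56.2 ± 13.3 TPM against 14.1 ± 5.43 TPM, log2 fold changes of 1.65 to 1.97, adjusted p of 0.0152 to 0.0486 from limma). In all 6 comparisons, 16 genes were lower, among them the receptor and adaptor Trem2 and Tyrobp, the ligand Tnf, the signalling genes and transcription factors Blnk, Btk, Gab2, Mitf, Plcg2, Spi1, Tec and Vav3, the inhibitor Irf8, the fusion genes Adam8 and Sirpa, and the sugar phosphate transporter Slc37a2. The log2 fold changes of Tyrobp lay between −10.09 and −7.58, those of Spi1 between −8.13 and −6.48, and those of Mitf between −2.88 and −2.51. Irf8, which restrains osteoclast formation, and Spi1 and Mitf, which promote it, were thus lower together. The vacuolar pump subunit Atp6v1e1 fell in 5 comparisons (log2 fold changes of −1.60 to −0.92), and Plekhm1, also listed under acid secretion and resorption, in 4. Fcer1g and Cd81 fell in 5, and Nfkbia, the inhibitor of NF-κB, in 3. The macrophage list moved with them, from at least 7.96 in control BM to at most 0.511 in 16 of 18 knockout libraries, and its part was not tested. DKO against SKO and tumor cells against BMT called 0 of 59 genes in set 2, and of 177 tests of whether differences between yBM, BMT and tumor cells depend on the genotype 0 were called by limma (smallest adjusted p = 0.869).

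**Figure D4:**
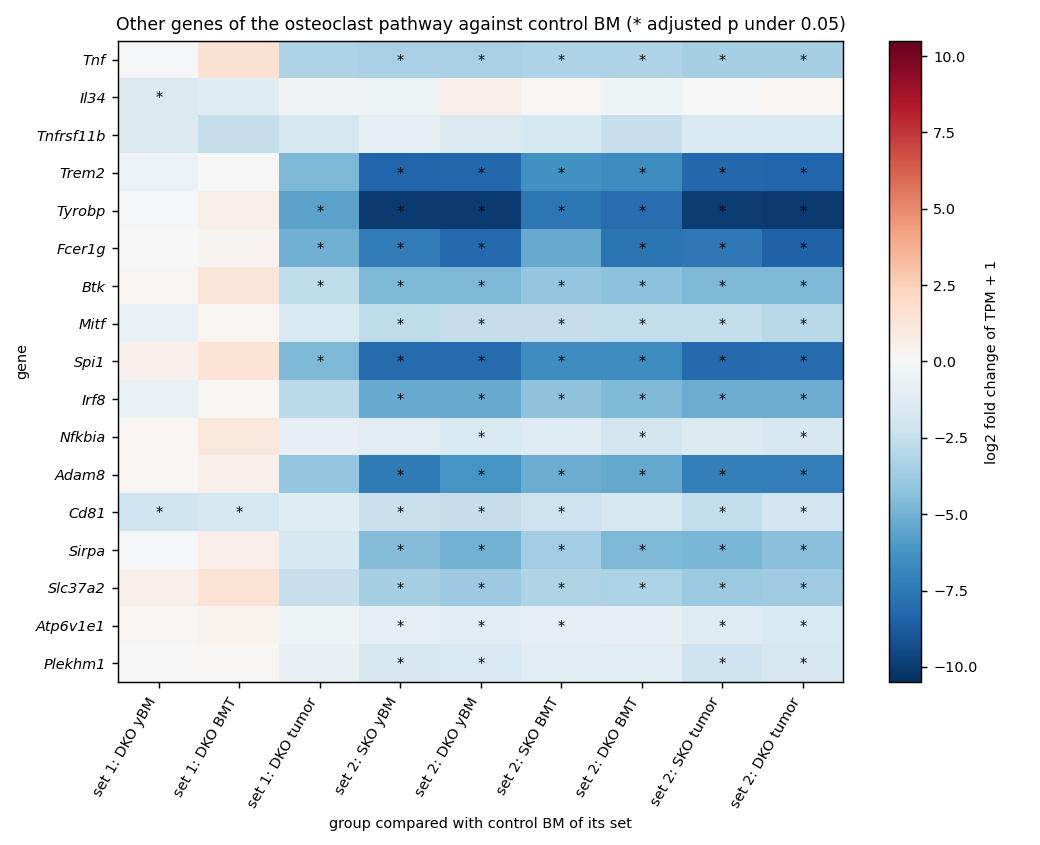
Log2 fold change of TPM + 1 against control BM of the same set, by colour, for pathway genes named by rule (vertical axis) and the 9 groups compared (horizontal axis); asterisks mark an adjusted p under 0.05 from limma. Tyrobp, Spi1, Trem2 and Btk are lower in all 6 groups of set 2, whereas Tnfrsf11b carries no asterisk in any column.

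RANKL and its decoy are known as products of osteoblasts and stromal cells. Tnfsf11 (RANKL) lay between 0.382 and 21.1 TPM in control BM of set 1, at 0.537, 9.37 and 0.733 TPM in the libraries labelled DKO BMT 1 to 3 and between 1.32 and 3.22 TPM in DKO yBM. Tnfrsf11b (osteoprotegerin) was at 44.5, 1.90 and 0.677 TPM in the BMT libraries, at 9.91 and 3.64 TPM in DKO yBM 3 and 4 and at 26.3 to 63.4 TPM in control BM, and its log2 fold change against control BM was −2.51 (SE 0.87) in BMT and was not called (adjusted p = 0.120 from limma). The 2 lowest libraries of the decoy in set 1 were those labelled DKO BMT 2 and 3. Tnf, which acts with RANKL, was at 4.02, 148 and 63.8 TPM in the BMT libraries and at 29.6 and 107 TPM in DKO yBM 3 and 4, against 2.22 to 48.9 TPM in control BM and 2.89 to 6.42 TPM in the other yBM libraries (log2 fold change of 1.61 in BMT, SE 1.26, adjusted p = 0.510). In DKO tumor cells, where macrophage transcripts were low in 2 of 3 libraries, it was at 0.871, 0 and 0.0257 TPM. Control BM overlapped with yBM and with BMT for all 3.

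The gelatinase Mmp9 and the sialic acid-binding receptor Siglec15, which belong to the pathway list, are described here because of their values, outside the rule for named genes. Mmp9 was at 1024 and 2379 TPM in DKO yBM 3 and 4 and at 1.85, 1480 and 5110 TPM in the libraries labelled DKO BMT 1 to 3. Its highest value among the other libraries of set 1 was 106 TPM in DKO yBM 5, and control BM was at 35.6, 6.91, 4.85 and 3.83 TPM. Siglec15 was at 1.49 and 3.64 TPM in DKO yBM 3 and 4, at 0, 1.54 and 4.36 TPM in BMT 1 to 3 and at 0.253 TPM or less elsewhere in set 1. Both had the same 4 highest libraries as Acp5. In set 2, Mmp9 was highest in SKO BMT 1 at 175 TPM, where Acp5 was at 0.372 TPM and Csf1r at 0.390 TPM.

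Of 13579 genes ranked by the Pearson r of log2(TPM + 1) with the mean standardized level of the members, taking the lower of the r over the 16 libraries of set 1 and the 21 of set 2, the 5 most alike were Ckb (0.76 and 0.79 in the 2 sets), Slc37a2 (0.84 and 0.76), Prkch (0.79 and 0.75), Sh2b2 (0.75 and 0.80) and Pstpip1 (0.87 and 0.75). The libraries share groups and cell content, and the values are a description. Each member has equal weight in the mean. In set 2 the mean thus includes Oscar, Calcr, Dcstamp and Ocstamp, which reached 1 TPM in no library of that set. Ckb, the brain-type creatine kinase, was at 423 TPM in DKO yBM 4 and 449 TPM in the library labelled DKO BMT 3, but at 146 TPM in DKO yBM 3 within the range of control BM (56.4 to 215 TPM). Pstpip1 was at 134 TPM in DKO yBM 4 and at 150 and 208 TPM in the libraries labelled DKO BMT 2 and 3, but at 31.9 TPM in DKO yBM 3, with 18.8 to 58.2 TPM in control BM of set 1 and 132 TPM in the control column Control-WT-1 of set 2. In set 1 alone, Tm4sf19 (r = 0.97, n = 16 libraries) was most alike, a gene that falls outside the rule and was named after its values were seen, at 7.40, 13.6, 5.23 and 13.4 TPM in yBM 3, yBM 4, BMT 2 and BMT 3, with no other library of set 1 above 1.65 TPM.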

How the data were processed

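RNA was sequenced from 37 libraries of cultured mouse cells. The authors deposited TPM values (length-corrected transcript abundances of fixed total) per Ensembl gene ID, and per the labels the reads were trimmed with Trim Galore 0.6.1, checked with FastQC and quantified with Salmon for mm39. TPM keeps no read counts, so the depth is unknown and the DESeq2 test named by the study could not be run. Symbols were found for 48246 of 51123 IDs. Of the columns, 0 were left unused, and 3 (the controls of set 2) could be matched to their group only. Nothing in the labels says that the libraries of set 2 came from separate animals, so p-values measure the spread between libraries.

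Here, log2(TPM + 1) was fitted with limma 3.58.1 in R 4.3.3, with a trended prior, 1 fit per set over all groups, for genes that reached 1 TPM in 3 or more of its libraries. The threshold for a call was a Benjamini-Hochberg adjusted p of 0.05 over all genes tested. The added 1 makes differences of weakly expressed genes look smaller. The fit was tested on simulated data. The members and lists were chosen with earlier results of these data known. Besides the members, the rule named in each role the 3 pathway genes with the smallest p against control BM, genes called between genotypes or between tumor and BMT, and the 5 genes most alike, except that 1 pathway gene is counted but not reported here by name. Other called genes, and Mmp9, Siglec15 and Tm4sf19, were named after their values were seen. No 2 libraries correlated above 0.972. The deviations of same-numbered libraries correlated at 0.286 to 0.379 between SKO BMT and DKO BMT of set 2, and not in every pair of any other 2 groups above 0.1. The study calls BMT of set 1 paired with the tumor cells, and the labels do not say that the numbers mark the mouse. Alternatives were another pseudocount, no filter, other scalings, only the compared groups, the replicate block, single libraries left out and, chosen after seeing the data, the block within the 2 compared groups alone and leaving out libraries whose Trp53 or Wwox goes against the label.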

Additional observations from a re-analysis of the deposited data

Results flagged for a closer look

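In 60 combinations of a gene and a group with 4 or more libraries, the highest or lowest library was compared with the others by Dixon's criterion, which chance meets in about 1 in 20 groups, and 5 met it. Calcr was at 0.0146 TPM in control BM 1 of set 1 and listed at 0 in the other 3. Nfatc1 was at 9.96 TPM in control BM 2, below the 13.3 to 14.1 TPM of the others. Tnfrsf11b was at 63.4 TPM in control BM 1, above the 26.3 to 28.0 TPM of the others. In DKO yBM 3, where Acp5 was high, Btk was at 2.38 TPM against 12.3 to 22.3 TPM in the other yBM libraries, and Spi1 was at 41.7 TPM against 138 to 254 TPM.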

How the results depend on the processing

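Counts are of called genes, pathway genes first and members second. With the replicate block, 0 and 0 were called in all 4 comparisons of set 1. This block ties same-numbered libraries of control and DKO mice, which cannot be the same animal. Same-numbered yBM and control BM deviations correlated at −0.27 to −0.002, so nothing is read from this block against control BM. With the block within tumor and BMT alone, 0 and 0 were called there as well (same-numbered tumor and BMT deviations correlated at −0.08 to 0.27). The block changed no call between the knockout groups of set 2. Without the filter, set 1 gave 0 and 0 in BMT, 1 and 0 in tumor cells and 0 and 0 in tumor against BMT, and set 2 gave 1 member in SKO BMT and 2 in DKO BMT. With only the compared groups, BMT, tumor cells and tumor against BMT of set 1 gave 0 and 0, and SKO BMT of set 2 gave 12 and 1. With a pseudocount of 0.1, set 1 gave 0 members in BMT and 12 pathway genes in tumor cells and 11 in tumor against BMT, and SKO BMT gave 1 member. Median-ratio scaling gave 0 and 0 in tumor against BMT, and rescaling without mitochondrial genes gave 0 pathway genes there. Without libraries whose Trp53 goes against the label, BMT and tumor against BMT gave 0 and 0, and without those whose Wwox does, yBM gave 0 and 0, BMT 4 members, tumor cells 0 members and tumor against BMT 10 and 7. The cause was not tested. With single libraries left out, pathway genes ranged from 1 to 7 (yBM), 0 to 2 (BMT), 0 to 20 (tumor cells) and 0 to 17 (tumor against BMT) in set 1 and from 15 to 30 in set 2 against control BM, and members from 0 to 1, 0 to 3, 0 to 2 and 0 to 4 in set 1, and from 1 to 4 in SKO BMT, 1 to 2 in DKO BMT and 2 to 3 in SKO tumor cells. Median-ratio scaling shifted the median of all genes by up to 0.20 in set 1 and moved the share of called genes that were higher from 21.4% to 59.1% in yBM, from 40.7% to 57.3% in BMT, from 34.97% to 57.6% in tumor cells and, in set 2, from 17.4% to 33.3% in SKO tumor cells. The depth is unknown, so values near 0 carry no limit.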
